A study of Mus musculus with 8 samples.

Results

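Clustered histone genes encode the histones H1, H2A, H2B, H3 and H4 that package newly copied DNA, and most lie side by side in the genome. They were taken as all genes with an mRNA model whose symbol begins with Hist1h, Hist2h, Hist3h or Hist4h. There were 69 of 22050 genes with an mRNA model: 6 for H1, 19 for H2A, 19 for H2B, 12 for H3 and 13 for H4. RNA was measured in haematopoietic stem cells, which can rebuild every blood lineage, sorted from the bone marrow of C57BL/6 mice as CD150+ CD48- EPCR+ cells without lineage markers. There were 4 libraries from neonates at postnatal day 5 (P5) and 4 from mice aged 4 weeks, with 100 cells sorted for each library. The labels name no allele, transgene or treatment for either age. Nor do they say if replicates are different mice, so each p-value rests on the variation among these libraries, part of which may be technical.

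The libraries held 5775130 to 7470777 exon reads. The summed level of 8 stem cell markers was between 3785 and 4617 CPM (reads per 1000000 exon reads, by effective library size). Summed levels of 7 lymphoid markers stayed at or under 3.57 CPM. Those of 7 erythroid markers were 9.64 to 19.9 CPM, apart from 74.4 CPM in 4-week replicate 3. Reads from Y-linked genes were near 0 in P5 replicates 1 and 3 (2 reads and 0 reads) and between 1532 and 2293 reads in the other libraries, so the age comparison is not balanced for sex. Depth and these markers are given here once, and their part in the differences below was not tested.

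Most messages of these genes are made in S phase, when DNA is copied, and are removed as it ends. They carry no poly(A) tail and end instead in a short stem-loop, which is bound by the stem-loop binding protein SLBP and guides cleavage, translation and decay of the message. Some of the genes can also give longer, polyadenylated messages in cells that no longer divide. Because the tail is missing, the recovery of histone messages depends on how cDNA synthesis was primed. The labels cite a published method with modifications and do not state the primers.

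The Hist1 cluster spanned chr13:21715711-23934913 (GRCm38.p6, the assembly of mm10) with 53 placed members. The Hist2 cluster spanned chr3:96219885-96270192 with 10 members, and the Hist3 cluster spanned chr11:58948911-58955192 with 3. Hist4h4 lay alone at chr6:136803993-136804431. Hist1h2al, annotated as a pseudogene, lay far from the cluster at chr13:51202727-51203065, and Hist1h2ap matched more than 1 RefSeq gene and was not placed.

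The stem-loop could be read behind the stop codon in the annotated transcripts of 44 of the 69 members. The search asked for 16 bases that open with GG, hold the loop letters CTTTT and then AG, and close with CC, with the positions between them free. Of 55381 other genes in the GENCODE annotation, 45 (0.0813%) held these letters anywhere in a transcript on the transcript strand. In the 43 members whose model with the stem-loop has 1 exon, it began 21 to 58 bases after the stop codon, with a median of 31. The following 30-base windows, 5′ to 3′, show each spelling of the stem-loop but the H4 spelling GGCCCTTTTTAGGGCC, with the stem-loop in capitals.
Hist1h1d, chr13:23555780-23555809, plus strand: ctcaaacGGCTCTTTTCAGAGCCacccaca
Hist2h2ac, chr3:96220411-96220440, minus strand: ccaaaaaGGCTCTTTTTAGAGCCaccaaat
Hist1h2bj, chr13:22043631-22043660, plus strand: atccaaaGGCTCTTTTCAGAGCCacgcaca
Hist1h3f, chr13:23544925-23544954, plus strand: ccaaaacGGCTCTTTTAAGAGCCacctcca
Hist1h4d, chr13:23581943-23581972, plus strand: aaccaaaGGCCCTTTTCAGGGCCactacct
Hist1h4b, chr13:23757359-23757388, plus strand: tacaaaaGGTCCTTTTCAGGACCactcact
The stem of all 11 H4 members with a stem-loop began with GGCCC or, in Hist1h4b and Hist1h4j, with GGTCC, while the stem of the 33 other members began with GGCTC. The spelling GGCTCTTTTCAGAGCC was the most common, in 26 members, among them 10 of the 11 H2A and 5 of the 8 H3 members with a match. The spelling of Hist2h2ac was found in that gene alone, and that of Hist1h3f in 3 H3, 2 H2B and 1 H1 members. Of the 25 members without a match, 17 had models that ended less than 50 bases after the stop codon, so the stem-loop could lie beyond the model. Only 6 members had a longer 3′ end in the annotation and still no match: Hist1h2bc, Hist1h2bq, Hist1h2br, Hist2h2be, Hist1h3g and Hist1h4a.

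Histone messages made up 0.0662% to 0.198% of exon reads, 66812 reads in all. The summed level of the 69 members was 2015, 1143, 895 and 1304 CPM in P5 replicates 1 to 4, and 1384, 1484, 1302 and 662 CPM at 4 weeks. The ages overlapped in part. P5 replicate 1 was the highest of all libraries and 4-week replicate 4 the lowest, and the range was 3.04-fold over the 8 libraries, 2.25-fold within P5 and 2.24-fold within 4 weeks. The P5 mean was 1339 ± 481 CPM and the 4-week mean 1208 ± 372 CPM (SD over 4 libraries each), a ratio of 1.11. Without those 2 libraries, left out together after the data were seen, the ratio was 0.801. They were the highest P5 and the lowest 4-week library, so leaving them out had to lower it. Over all alternatives the ratio ranged from 0.801 to 1.23. In such bulk samples, fewer cells in S phase and less histone RNA in each cell cannot be told apart.

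Each of the 5 types was highest in P5 replicate 1 and lowest in 4-week replicate 4. H1, the linker histone family that binds DNA between nucleosomes, had summed levels of 643, 402, 304 and 417 CPM at P5 and 432, 472, 414 and 204 CPM at 4 weeks. H2A, which pairs with H2B in the nucleosome core, had 434, 228, 175 and 280 CPM against 278, 284, 263 and 133 CPM. H2B had 699, 380, 318 and 452 CPM against 528, 581, 489 and 263 CPM. The ages overlapped in each of these types. H3, which pairs with H4 at the centre of the nucleosome, gave the fewest reads of the types, with 71.7, 40.4, 28.8 and 45.1 CPM at P5 and 46.9, 39.1, 39.9 and 15.5 CPM at 4 weeks. H4 had 167, 92.8, 69.7 and 110 CPM against 98.4, 109, 96.1 and 46.1 CPM. The ratios of the P5 mean to the 4-week mean were 1.16 for H1, 1.17 for H2A, 0.993 for H2B, 1.32 for H3 and 1.26 for H4. The same 2 libraries were highest and lowest in every cluster, with ratios of 1.12 for Hist1, 1.07 for Hist2, 1.11 for Hist3 and 1.26 for Hist4.

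**Figure D1:**
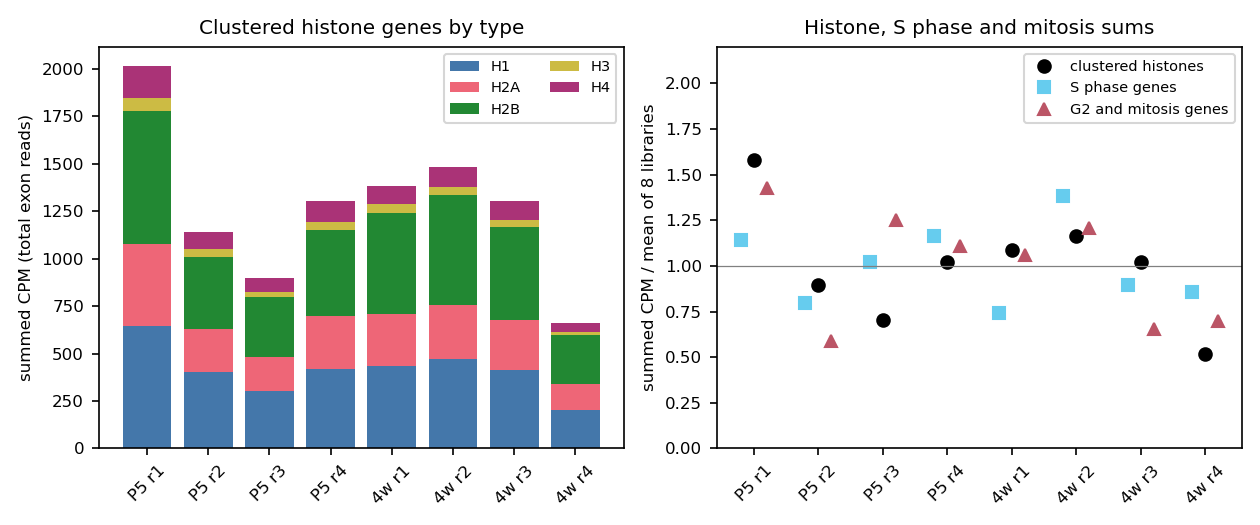
Left, summed CPM of total exon reads in each library (r1 to r4, replicates; 4w, 4 weeks), stacked by histone type. Right, the summed CPM of the clustered histone genes, 30 S phase genes and 15 G2 and mitosis genes, each divided by its mean over the 8 libraries. In the histone sum P5 replicate 1 is highest at 2015 CPM and 4-week replicate 4 lowest at 662 CPM. The S phase sum is highest in 4-week replicate 2 and lowest in 4-week replicate 1.

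Summed levels of 30 S phase genes, such as the MCM helicase subunits and PCNA, were 4144, 2899, 3724 and 4228 CPM at P5 and 2689, 5029, 3252 and 3126 CPM at 4 weeks. They spread 1.87-fold, less than the histone sum. Their highest library was 4-week replicate 2, which was also the highest of its age in histone RNA. The lowest library in histone RNA, 4-week replicate 4, was not the lowest here. P5 replicate 3 had the lowest histone sum of its age and an S phase sum above that of P5 replicate 2. Whether the S phase and histone sums vary together was not tested. Summed levels of 15 G2 and mitosis genes were 2232, 916, 1955 and 1733 CPM at P5 and 1659, 1887, 1018 and 1088 CPM at 4 weeks. They too were highest in P5 replicate 1, but their lowest library was P5 replicate 2.

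The make-up of the histone pool varied less than its size. H1 gave 30.9% to 35.2% of the summed CPM in the 8 libraries, H2A 19.1% to 21.6%, and H3 2.34% to 3.56%. The H2B share was 34.7%, 33.3%, 35.5% and 34.7% at P5 and 38.2%, 39.1%, 37.6% and 39.7% at 4 weeks, with no overlap. The H4 share was 7.78% to 8.45% at P5 and 6.97% to 7.38% at 4 weeks, and the H1 share 31.9% to 35.2% against 30.9% to 31.8%, also with no overlap. These shares add to a whole, so they are not independent. When the 6 members with extended gene models (exon length above 1000 bases in the deposited gene model, or more than 1 exon), all of them H2B genes, were left out, the H2B share was 26.7% to 29.6% at P5 and 24.3% to 31.6% at 4 weeks, and the ages overlapped in all 5 types.

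Single members were tested with edgeR's quasi-likelihood test over 12235 genes, of which 55 were members. Of the 69, 68 had at least 1 exon read. The 14 not tested held 0.947% of the members' reads, and none had more than 92 reads. Hist1h2aa had no read in any library, which allows up to 3 counts, 0.409 to 0.517 CPM per library. At an adjusted p under 0.05, no member was higher at P5, where 7.99% of all genes tested were called, and 1 was lower, where 8.55% were called. At an unadjusted p under 0.05 there were 6 members higher and 3 lower, against 29.9% of all genes either way. DESeq2 called 1 member higher (Hist1h3f) and limma-voom none. Leaving out P5 replicate 2, P5 replicate 4 or 4-week replicate 2 gave 1 member higher (Hist1h2bf, Hist1h4f and Hist1h2bf in turn). The members' standard errors were large, with a median of 0.39 on the log2 scale against 0.14 for all genes.

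The log2 fold changes leaned to P5, but this was not stable. The value was above 0 for 37 of 55 members (67.3%) and for 49.5% of all genes, with a median of 0.19 against -0.0042. Without P5 replicate 1 it was above 0 for 23 of 54 members, with a median of -0.02. Without 4-week replicate 4 the median was 0.02, and without both it was -0.27, with 12 members above 0 and 42 below. Both were picked as the ends of the histone sum, so leaving them out was bound to pull the values towards 4 weeks. With a Y-linked covariate (reads present or absent) the median was 0.04. With any other single library left out, the median was higher than in the main fit, at 0.26 to 0.36. On exon reads that fitted only 1 place in the genome it was 0.32, with 26 of 36 members above 0.

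**Figure D2:**
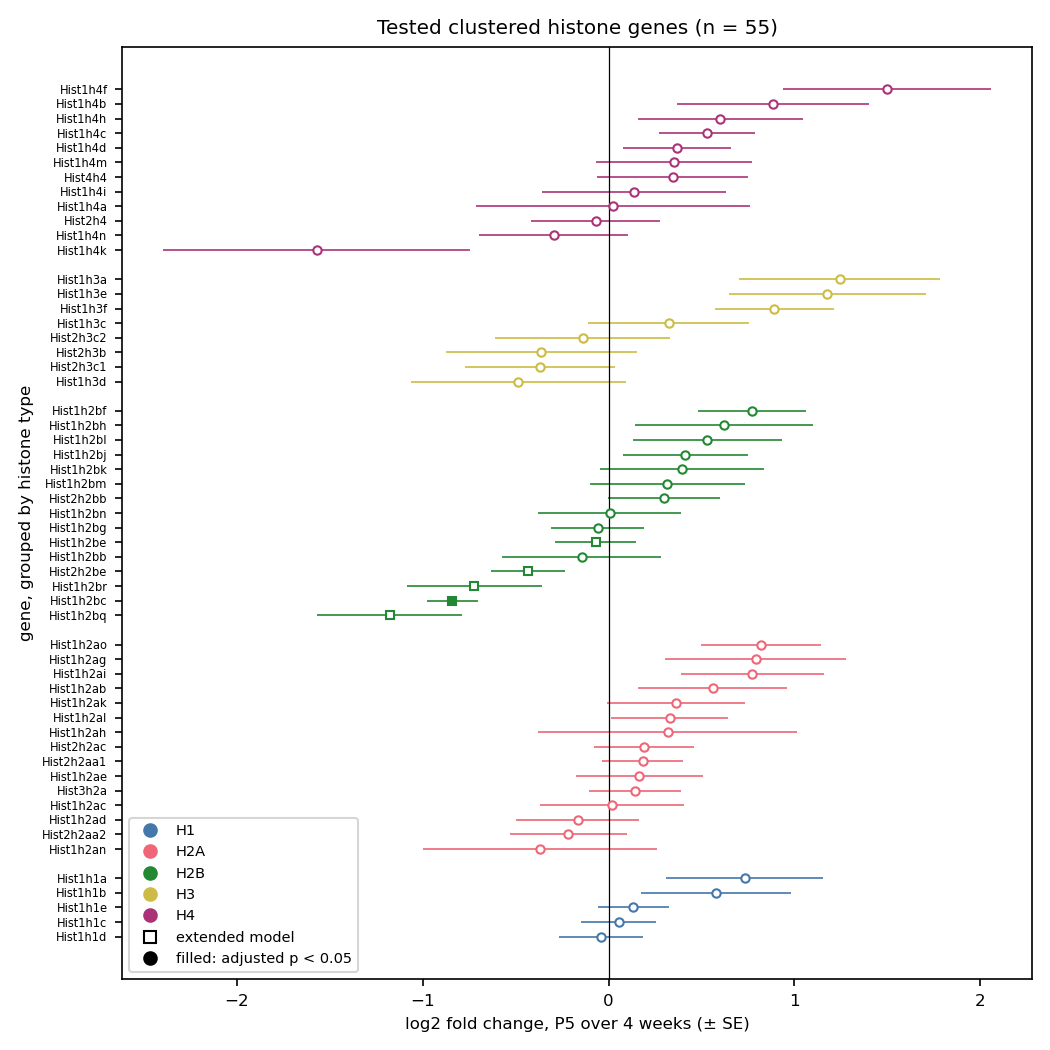
Log2 fold change of P5 over 4 weeks with its approximate standard error for the 55 tested members, grouped by histone type. Squares are members with an extended gene model, and filled symbols passed an adjusted p of 0.05 (edgeR). Only Hist1h2bc is filled, and the 5 squares all lie below 0.

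Among the H1 genes, Hist1h1d had the most reads of all members and the highest level per length of its type, 159 CPM per kb of exon. Its levels were 171, 121, 90.8 and 103 CPM at P5 and 142, 145, 147 and 68.6 CPM at 4 weeks, a log2 fold change of -0.04 (SE 0.23). The ages overlapped, and 4-week replicate 4 stood below the other libraries of its age. Hist1h1b, at 110 CPM per kb, had 171, 78.0, 76.8 and 92.4 CPM against 80.6, 123, 59.6 and 18.6 CPM. Hist1h1e, at 108 CPM per kb, had 113, 89.4, 54.6 and 96.6 CPM against 91.0, 81.3, 92.5 and 58.7 CPM. Hist1h1a had the largest positive fold change of the type, with 85.2, 32.0, 32.6 and 58.2 CPM against 33.5, 50.7, 34.7 and 7.62 CPM (log2 fold change 0.73, SE 0.42, edgeR adjusted p = 0.27). Hist1h1a and Hist1h1b spread 11.2-fold and 9.22-fold over the 8 libraries, while Hist1h1c spread 2.08-fold, so members of the same type did not vary alike. The testis H1 gene Hist1h1t had 15 reads in all.

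Of the H2A genes, Hist3h2a had the highest level per length, 87.3 CPM per kb, and 99.9% of its exon reads fitted 1 place. It had 72.7, 37.5, 31.7 and 43.9 CPM at P5 and 47.6, 52.0, 43.2 and 26.3 CPM at 4 weeks. Hist2h2ac followed at 54.6 CPM per kb and Hist2h2aa1 at 46.6 CPM per kb, and their ages overlapped too. Hist1h2ao had 40.8, 22.5, 17.1 and 37.2 CPM at P5 and 20.1, 22.7, 17.3 and 7.20 CPM at 4 weeks, the largest positive fold change among the H2A genes (log2 0.82, SE 0.32, edgeR adjusted p = 0.105). Only 12.7% of its reads fitted 1 place. The largest negative value was that of Hist1h2an, -0.37 (SE 0.63), from 0.777 to 7.43 CPM. Hist1h2ai, named here after its values were seen, was the only tested member whose libraries were all higher at P5 (5.36 to 7.91 CPM against 1.25 to 5.34 CPM). Over all genes, 10.0% separated that way, and 11.2% the other way, as did 1 member, Hist1h2bc.

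Of the H2B genes, Hist2h2bb had the highest level per length of all members, 184 CPM per kb, with 99.1% of reads fitting 1 place. It had 160.5, 72.0, 71.9 and 94.3 CPM at P5 and 96.2, 109, 84.3 and 36.2 CPM at 4 weeks (log2 fold change 0.30, SE 0.30). Hist1h2bn (110 CPM per kb) and Hist1h2bj (101 CPM per kb) came next. Hist1h2bn ranged from 23.8 to 72.8 CPM at P5 and from 16.5 to 78.2 CPM at 4 weeks. Hist1h2bf had the largest positive fold change, with 21.7, 10.9, 13.7 and 15.9 CPM against 9.64, 12.8, 9.76 and 4.57 CPM (log2 0.77, SE 0.29, edgeR adjusted p = 0.0896). Its ages overlapped by P5 replicate 2 and 4-week replicate 2. In the Hist3 cluster, Hist3h2ba had 71 reads and the pseudogene Hist3h2bb-ps 28 reads, and neither was tested.

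The H3 genes were low. Hist1h3a had 18.5, 7.15, 2.59 and 8.88 CPM at P5 and 7.11, 3.62, 3.87 and 1.25 CPM at 4 weeks (log2 fold change 1.24, SE 0.54, edgeR adjusted p = 0.14). Hist1h3f had 12.5, 7.93, 6.14 and 10.3 CPM against 6.16, 6.55, 4.54 and 2.77 CPM (log2 0.89, SE 0.32, edgeR adjusted p = 0.0754; 0.0472 with DESeq2). Hist1h3c had 2.95 to 9.82 CPM against 1.66 to 7.07 CPM, and Hist1h3d, the most negative of the type, 0.846 to 4.66 CPM against 1.25 to 5.38 CPM (log2 -0.49, SE 0.58). In each of these 4 the ages overlapped.

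Among the H4 genes Hist1h4d stood out with 125 CPM per kb, against 42.1 for Hist1h4c and 13.8 for Hist1h4m and Hist4h4. Hist1h4d had 82.7, 42.4, 28.9 and 52.7 CPM at P5 and 44.7, 48.6, 46.4 and 21.6 CPM at 4 weeks. Hist1h4f had the largest positive fold change of all members, log2 1.499 (SE 0.56, edgeR adjusted p = 0.086), from 0.987 to 5.18 CPM at P5 and 0.632 to 1.55 CPM at 4 weeks. Hist1h4k had the most negative, log2 -1.57 (SE 0.83), with 8.96 CPM in 4-week replicate 2 and no read in 4-week replicate 4. Hist4h4, alone on its chromosome, had 11.04, 4.82, 3.72 and 7.33 CPM against 7.11, 6.89, 5.22 and 2.22 CPM.

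Histone genes of a type are near copies of each other, and this limits what can be said of a single gene. Of the members' exon reads 60.3% fitted 1 place in the genome, against 83.5% to 85.5% of all exon reads. The share was 87.4% for H1, 37.3% for H2A, 53.2% for H2B, 35.5% for H3 and 52.1% for H4. In the annotated transcripts the median share of 50-base stretches found in that gene and no other was 98.9% for H1, 32.4% for H2A, 55.9% for H2B, 38.0% for H3 and 60.5% for H4. These GENCODE transcripts can be longer than the deposited models on which reads were counted, so the 2 kinds of share are not like for like. For Hist1h2ac they were 85.9% of stretches and 43.1% of reads. Some H2A stretches occurred in 39 genes, more than the 19 H2A members. Stretches of the H2B gene Hist1h2bc occurred in up to 139 genes, more than all 69 members, so some were shared with genes outside the members. Using only reads that fitted 1 place, the summed ratio of P5 to 4 weeks was 1.13. On these reads 36 members were tested and edgeR called none, where 7.65% of all genes were called higher, 8.25% lower and 15.9% either way, and 4 had an unadjusted p under 0.05.

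**Figure D3:**
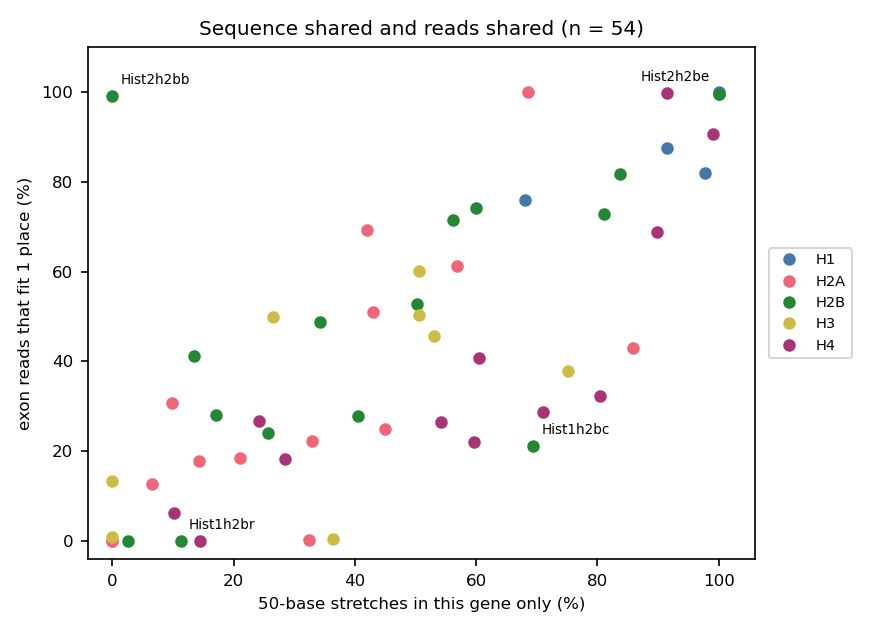
Share of 50-base stretches of annotated transcripts found in no other GENCODE gene (x axis, %) against the share of exon reads that fit 1 place (y axis, %), for the 54 members with at least 100 reads, coloured by histone type. H1 genes lie at the upper right and most H2A genes at the lower left. Hist2h2bb, whose stretches are all also listed under an overlapping gene model, lies apart at the upper left. Reads were counted on the deposited gene models, which can differ in length from the annotated transcripts.

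Hist1h2bq and Hist1h2br had no exon read that fitted 1 place, and 97.3% of the 50-base stretches of Hist1h2bq also occurred in Hist1h2br. How their reads divide between the 2 genes is therefore uncertain. Hist1h2bq took 42.3% to 49.2% of the pair's reads at P5, but 51.6%, 66.7%, 76.7% and 24.5% in the 4-week replicates, with exact 95% binomial intervals of 69.4% to 83.1% in replicate 3 and 18.1% to 32.0% in replicate 4. Intervals cover counting error only. Summed, the pair had 16.1, 13.1, 9.21 and 7.33 CPM at P5 and 24.5, 15.5, 26.8 and 22.02 CPM at 4 weeks. P5 replicate 1 lay above 4-week replicate 2, and the other libraries were separate. On its own Hist1h2bq had a log2 fold change of -1.18 (SE 0.39, edgeR adjusted p = 0.0548) and Hist1h2br -0.72 (SE 0.36, edgeR adjusted p = 0.203). Hist2h2aa1 and Hist2h2aa2 were as alike: 0 and 1 of their reads fitted 1 place, and their joint level was 33.1 to 75.4 CPM at P5 and 31.7 to 65.9 CPM at 4 weeks. Hist1h4n also had none.

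The 6 members with extended models were Hist1h2bc, Hist1h2be, Hist1h2bp, Hist1h2bq, Hist1h2br and Hist2h2be. Their summed level was 145, 103, 88.6 and 94.9 CPM at P5 and 193, 164, 171 and 135 CPM at 4 weeks. P5 replicate 1 lay above 4-week replicate 4, and the other P5 libraries lay below all 4-week libraries. Log2 fold changes were below 0 for all 5 that were tested, with a median of -0.72, while the other 50 tested members had 37 above and 13 below 0 and a median of 0.32. Hist1h2bq and Hist1h2br share their reads, so the 5 values are not independent, and the median is that of Hist1h2br. Hist1h2bc alone averaged 51.9 of the group's 108 CPM at P5 and 93.2 of its 166 CPM at 4 weeks. Hist1h2be had 45.1, 28.9, 19.2 and 28.1 CPM at P5 and 38.9, 33.1, 30.6 and 25.2 CPM at 4 weeks, with overlap (log2 -0.07, SE 0.22). Hist2h2be, 99.6% of whose reads fitted 1 place, had 17.0, 10.3, 12.4 and 12.4 CPM at P5 and 20.9, 15.9, 19.7 and 14.3 CPM at 4 weeks (log2 -0.43, SE 0.20, edgeR adjusted p = 0.159). In GENCODE some of the other members also had long 3′ ends, so such ends are not particular to this group. Examples are Hist1h1d (4931 bases, log2 fold change -0.04), Hist4h4 (2515 bases, 0.34) and Hist1h2ac (2058 bases, 0.02). The grouping is by deposited gene model, was made with earlier results known, and was not tested. Of the 6, Hist1h2bc, Hist1h2bq, Hist1h2br and Hist2h2be have no stem-loop match in their annotated transcripts, while Hist1h2be and Hist1h2bp do.

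Hist1h2bc was the called member. It had 64.2, 50.05, 47.5 and 46.0 CPM at P5 and 107, 98.7, 93.9 and 72.6 CPM at 4 weeks. Every P5 library was below every 4-week library. The P5 mean was 51.9 ± 8.35 CPM and the 4-week mean 93.2 ± 14.8 CPM (SD over 4 libraries each), 1.79-fold higher at 4 weeks (log2 fold change -0.84, SE 0.14, edgeR adjusted p = 0.000957). It did not follow the histone sum: in P5 replicate 1, where the sum was highest, it was lower than in 4-week replicate 4, where the sum was lowest. Only 21.1% of its exon reads fitted 1 place. These gave 16.2, 12.7, 11.96 and 10.2 CPM at P5 and 18.2, 18.1, 17.3 and 16.6 CPM at 4 weeks, still with no overlap but a smaller difference (log2 -0.46, SE 0.17, edgeR adjusted p = 0.0915). The exon reads that also fitted elsewhere were 35.6 to 48.0 CPM at P5 and 56.0 to 89.3 CPM at 4 weeks. The counts do not say which other places these reads fitted, in histone genes or outside them.

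In the deposited gene model Hist1h2bc has 3 exons with 774 exon bases in all, and the files do not list the exon limits used for counting. The GENCODE model is a different one, with a single intron of 7554 bases, chr13:23684622-23692175 on the plus strand, between an exon at chr13:23684199-23684621 that holds the whole coding sequence and a noncoding second exon at chr13:23692176-23692908. In the GENCODE model the first exon ends soon after the stop codon, at 23684612. At the distance of 21 to 58 bases seen in the single-exon members, a stem-loop would fall within the GENCODE intron, and the genome sequence there was not used. Intron reads, as counted by the deposited model, numbered 209, 212, 313 and 195 in the P5 replicates and 1483, 654, 1017 and 1329 at 4 weeks. The lowest 4-week library thus had more than the highest P5 library. Nearly all of these reads fitted 1 place, 924 of 929 at P5 and 4473 of 4483 at 4 weeks. No other GENCODE gene overlaps the GENCODE intron.

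On the CPM scale of exon reads, the intron level averaged 34.9 ± 10.7 in the P5 and 176 ± 49.99 in the 4-week libraries (SD over 4 each). In a fit over intron reads of all genes, scaled to intron reads, it was 4.50-fold higher at 4 weeks (log2 fold change -2.17, SE 0.22, edgeR adjusted p = 8.11e-05). In that fit 8.86% of 13180 genes were called lower at P5, 9.01% higher and 17.9% either way. The call held with each library left out in turn, with the Y-linked covariate and on unique intron reads, with log2 fold changes between -2.46 and -2.02. Reads across the exon junction were few, 38 at P5 and 34 at 4 weeks, and did not follow the intron reads. The kit does not mark strand, so reads from either strand of the intron are counted together. Hist1h2bq also had fewer intron reads at P5 (76 against 219; log2 -1.50, SE 0.39, edgeR adjusted p = 0.0195), but 0 and 4 of them fitted 1 place. Hist1h2be had 591 against 887 (log2 -0.53, SE 0.22, edgeR adjusted p = 0.12).

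**Figure D4:**
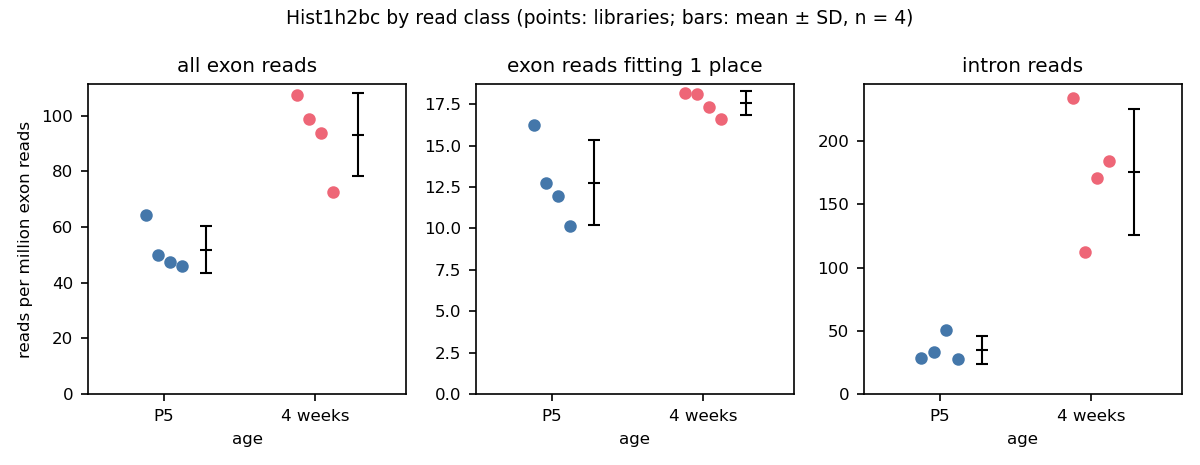
Hist1h2bc in each library (points) with mean ± SD (n = 4), in CPM of exon reads, for all exon reads, exon reads that fit 1 place, and intron reads. The ages do not overlap in any of the 3 panels, and the gap is widest in the intron reads, 34.9 against 176 on average.

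Many H2A and H2B genes lie back to back and are transcribed away from each other from the stretch of DNA between them. There were 13 such pairs, with 172 to 305 bases between their starts in GENCODE. Promoters were taken from RefSeq (GRCm38.p6), 250 bases before the start, and 61 members matched. The letters CCAAT, the site of the factor NF-Y, were found on either strand in 50 of the 61 (82.0%) against 34.5% of 27025 genes: in all 6 H1, 17 H2A and 16 H2B promoters, 8 of 10 H3 promoters and 3 of 12 H4 promoters. TATAAA, the TATA box, was found in 29 (47.5%) against 13.0%. The octamer ATTTGCAT, bound by the factor encoded by Pou2f1, was found in 13 (21.3%) against 1.61%, all of them H2A or H2B genes. Matches of different motifs may overlap by a few letters. Pair members share sequence, so their promoters are not independent.

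The sequences between 4 pairs are shown because their H2B genes lie at different fold changes between the ages. They lie between the RefSeq starts, which differ from the GENCODE starts. They are read on the strand of the H2B gene, with matches to the 3 motifs on either strand in capitals.
Hist1h2ac and Hist1h2bc, chr13:23683960-23684198, plus strand: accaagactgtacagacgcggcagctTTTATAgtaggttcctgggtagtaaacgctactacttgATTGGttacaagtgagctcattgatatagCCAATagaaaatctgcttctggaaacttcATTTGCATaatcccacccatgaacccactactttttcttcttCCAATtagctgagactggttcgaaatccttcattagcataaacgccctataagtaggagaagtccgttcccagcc
Hist1h2ao and Hist1h2bq, chr13:21810200-21810366, minus strand: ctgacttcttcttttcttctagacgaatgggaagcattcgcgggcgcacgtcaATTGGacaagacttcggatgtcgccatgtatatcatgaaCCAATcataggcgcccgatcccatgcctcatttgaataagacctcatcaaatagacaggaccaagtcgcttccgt
Hist2h2ac and Hist2h2be, chr3:96220881-96221071, plus strand: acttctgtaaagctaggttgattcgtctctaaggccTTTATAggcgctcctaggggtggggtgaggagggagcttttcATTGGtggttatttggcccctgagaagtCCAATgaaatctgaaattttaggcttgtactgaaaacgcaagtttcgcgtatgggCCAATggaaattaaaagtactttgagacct
Hist1h2ag and Hist1h2bj, chr13:22042950-22043197, plus strand: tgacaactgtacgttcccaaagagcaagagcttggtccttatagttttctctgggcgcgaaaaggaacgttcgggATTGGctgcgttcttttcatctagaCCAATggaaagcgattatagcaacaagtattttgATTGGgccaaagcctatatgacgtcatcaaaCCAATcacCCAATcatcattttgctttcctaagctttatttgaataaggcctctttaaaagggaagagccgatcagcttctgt
Between Hist1h2ac and Hist1h2bc there were 3 CCAAT, 1 TATAAA and 1 octamer match, and between Hist2h2ac and Hist2h2be 3 CCAAT and 1 TATAAA. The other 2 stretches held CCAAT matches only, 2 and 5.

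The genes of a pair did not always differ alike between the ages. Hist1h2ac had a log2 fold change of 0.02 and its partner Hist1h2bc -0.84. The values were 0.82 for Hist1h2ao and -1.18 for Hist1h2bq, and 0.19 for Hist2h2ac and -0.43 for Hist2h2be. Without an extended model the partners lay closer in 5 of 6 pairs, such as Hist1h2ag at 0.79 and Hist1h2bj at 0.41, the exception being Hist1h2ad at -0.17 and Hist1h2bf at 0.77. Differences within pairs were not tested.

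**Figure D5:**
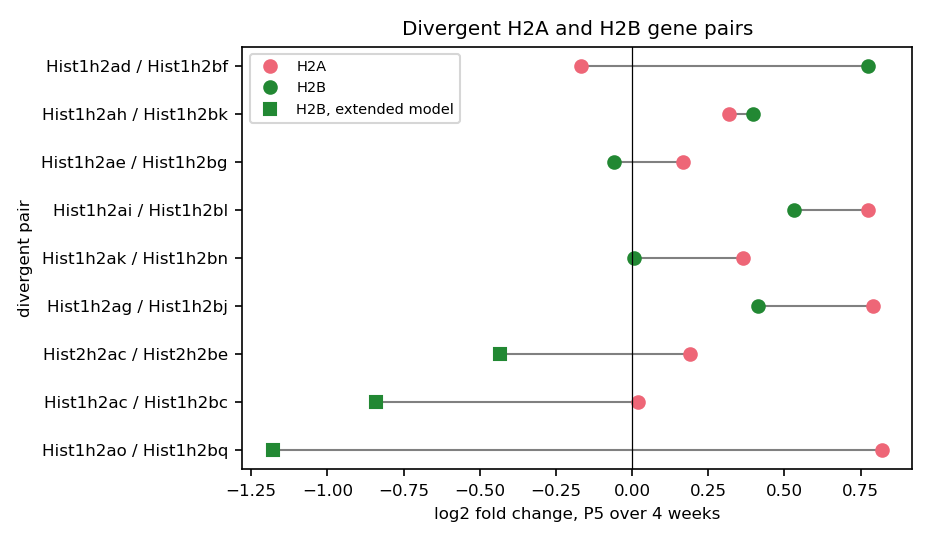
Log2 fold change of P5 over 4 weeks for the H2A and H2B genes of the 9 divergent pairs in which both were tested, joined by a line. Squares are H2B genes with an extended model, all 3 of which lie below 0 and to the left of their H2A partners.

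Of 30 factors that make and process histone messages, all tested, edgeR called 2 higher and 1 lower at P5, where 16.5% of all genes tested were called either way. Their median log2 fold change was 0.03. Pou2f1, which encodes the octamer-binding factor, had 177, 173, 178 and 167 CPM at P5 and 143, 135, 129 and 122 CPM at 4 weeks, with no overlap (log2 0.39, SE 0.07, adjusted p = 0.00282). Cstf2, a cleavage factor subunit, had 134 to 161 CPM against 105 to 132 CPM (log2 0.35, SE 0.09, adjusted p = 0.0182). Its call was lost without P5 replicate 3 or 4-week replicate 1, 3 or 4, and with the Y-linked covariate (log2 0.26, adjusted p = 0.167). Zfp473, a zinc finger protein of the U7 histone processing complex, had 2.33 to 5.01 CPM against 6.38 to 8.06 CPM (log2 -0.95, SE 0.30, adjusted p = 0.0461). That call was lost with any library left out, at adjusted p from 0.0505 to 0.108.

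Of 22 histone chaperones, which carry histones to DNA, edgeR called none higher and 2 lower at P5. Over all genes tested, 7.99% were called higher and 8.55% lower. At an unadjusted p under 0.05 there were 4 chaperones either way, against 29.9% of all genes. Chaf1b, a subunit of the chromatin assembly factor CAF-1, had 68.4, 56.4, 53.5 and 68.9 CPM at P5 and 81.8, 98.4, 81.1 and 94.9 CPM at 4 weeks (log2 -0.53, SE 0.11, edgeR adjusted p = 0.00575). Ipo4, an importer of histones into the nucleus, had 89.2 to 114 CPM against 123 to 136 CPM (log2 -0.37, SE 0.09, edgeR adjusted p = 0.0136), a call lost with the Y-linked covariate (adjusted p = 0.146). Without 4-week replicate 2, 1 chaperone was called higher.

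Of 11 histone variant genes outside the Hist1 to Hist4 clusters, edgeR called 3 higher and 1 lower at P5. Over all genes, 16.5% were called either way. The lists were not compared by a test. The 2 genes for the same H3.3 protein differed in opposite directions. H3f3a had 613, 510, 526 and 516 CPM at P5 and 391, 449, 386 and 391 CPM at 4 weeks (log2 0.42, SE 0.08, edgeR adjusted p = 0.00347; 0.101 on reads fitting 1 place). H3f3b had 405, 350, 352 and 360 CPM against 661, 618, 631 and 581 CPM (log2 -0.76, SE 0.08, edgeR adjusted p = 1.56e-05). H1f0, a linker histone of slowly dividing cells, had 88.5 to 121 CPM against 58.5 to 74.8 CPM (log2 0.61, SE 0.12, edgeR adjusted p = 0.00327). Cenpa, the histone H3 of the centromere, had 43.4 to 72.9 CPM against 15.0 to 33.8 CPM (log2 1.10, SE 0.23, edgeR adjusted p = 0.00571), a call lost with the Y-linked covariate (adjusted p = 0.0705).

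None of 30 S phase genes and none of 15 G2 and mitosis genes was called by edgeR, against 16.5% of all genes. At an unadjusted p under 0.05 there were 1 and 2 of them, against 29.9% of all genes. The log2 fold change was above 0 for 24 of the S phase genes (median 0.12) and for 14 of the G2 and mitosis genes (median 0.37). Over all genes tested it was above 0 for 49.5%, with a median of -0.0042. Genes within a list may vary together across libraries, so they are not independent, and this lean was not tested. Pola1, a DNA polymerase subunit, had 63.3 to 103 CPM at P5 and 97.8 to 165 CPM at 4 weeks (log2 -0.41, SE 0.18), and Cdt1, a licensing factor of replication, 57.4 to 73.0 CPM against 39.5 to 71.0 CPM (log2 0.34, SE 0.16). Cdk1, the mitotic kinase, had 46.5 to 104 CPM against 36.9 to 67.2 CPM (log2 0.65, SE 0.23), and its partner Ccnb1 23.8 to 103 CPM against 16.7 to 45.3 CPM (log2 0.94, SE 0.36). Without 4-week replicate 2, 4 S phase genes and 1 G2 and mitosis gene were higher at P5, and without P5 replicate 2, 5 G2 and mitosis genes were.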

How the data were processed

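RNA of sorted stem cells was sequenced in 8 libraries, 4 per age. The authors deposited raw counts of total and unique exon, intron, junction and gene reads, per the file headers. The submitters' processing notes name the build mm10; the aligner and counter: not given in the sources used here. Other columns, per the file headers, give exon length and exon number, the deposited gene models. The library kit named in the labels does not mark strand. Samples were grouped and numbered by the labels' titles; the run numbers in the file headers of 4-week replicates 1 and 2 stand in the reverse order of the titles.

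Expression was total exon reads. Numbered copies of a gene were summed, which touched no histone gene, and 24 gene names turned into dates in the file of P5 replicate 4 were restored from the same row of another file, all rows having equal coordinates in the 8 files. The test was edgeR 4.0.16 under R 4.3.3 (TMM, filterByExpr, quasi-likelihood, age as the only term, all 8 libraries), with Benjamini-Hochberg adjustment over 12235 genes and a threshold of 0.05; on simulated data the test was checked to recover known changes. CPM uses effective library sizes, and standard errors come from the F statistic. Sums, shares and medians have no test. Alternatives were scaling, filters, DESeq2 1.42.0, limma-voom (limma 3.58.1), read classes, Y-linked reads, the replicate block and each library left out; leaving out P5 replicate 1 with 4-week replicate 4, and the intron fits of Hist1h2bc, were added after seeing the data. The histone genes, gene lists and alternatives were chosen with earlier results of these data known. Named members were those called; per type the 3 highest per kb and the largest fold change each way; the Hist3 and Hist4 members; those with the largest and smallest unique share; and in other lists the called genes and the 2 with the smallest p. Others named were chosen after their values were seen.

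Cluster positions, promoters and names come from RefSeq (GRCm38.p6), matched through synonyms: 68 of 69 members matched a single gene. Strands, the distances within divergent pairs and the position of Hist1h2al come from GENCODE M21. Stem-loops and shared stretches were searched in GENCODE M21 transcripts, with both strands searched for shared stretches. Python 3.11.15 with pandas 2.3.3 and matplotlib 3.10.9 was used.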

Additional observations from a re-analysis of the deposited data

Results flagged for a closer look

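In the groups of 4 libraries, 10 of 122 checked (8.20%) had a library far from the other 3; chance gives about 1 in 20. In 4-week replicate 4 the H2A sum was 133 CPM against 263 to 284 CPM in the other 3 libraries, Hist1h1d was 68.6 CPM against 142 to 147 CPM, Hist1h4d 21.6 CPM against 44.7 to 48.6 CPM, and Hist3h2ba 0.416 CPM against 1.11 to 1.21 CPM. In P5 replicate 1 Hist1h1b was 171 CPM against 76.8 to 92.4 CPM, and H3f3a 613 CPM against 510 to 526 CPM. In 4-week replicate 2 Pola1 was 165 CPM against 97.8 to 102 CPM, Zfp473 6.38 CPM against 7.90 to 8.06 CPM, and H3f3a 449 CPM against 386 to 391 CPM. The erythroid marker sum was 74.4 CPM in 4-week replicate 3 against 9.64 to 11.8 CPM. Hist1h2aj, which has no mRNA model in the files and so entered no comparison, had 17 gene reads over the 8 libraries.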

How the results depend on the processing

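Members called higher at P5 numbered 0 in the main test, 1 with DESeq2, and 0 to 1 with each library left out. Members called lower numbered 1 in the main test, 2 with no filter, with DESeq2 and with exon plus intron reads, 0 with unique exon reads, 1 to 3 with each library left out, and 3 without P5 replicate 1 and 4-week replicate 4; the cause was not tested. The added calls with no filter, DESeq2 and exon plus intron reads were Hist1h2bq. Hist1h2bc was called in 20 of 21 alternatives, with log2 fold changes from -1.53 to -0.46. These include the fit on exon plus intron reads, where its 5412 intron reads add to its 3748 exon reads. The range is thus not one for exon reads alone. The summed P5 to 4-week ratios by type and cluster moved by less than the spread within an age in all 136 alternatives. That spread was wide, so this says little about stability. For all members the SD within an age was 0.52 on the log2 scale, against a log2 ratio of 0.15. The ratio for all members ranged from 0.801 to 1.23, so even a change of direction stayed within the spread. Histone mRNA factors called higher numbered 1 with the replicate block, the Y-linked covariate or only libraries with Y-linked reads, and 1 to 2 with a library left out; those called lower numbered 0 in these fits and from 0 to 0 with a library left out. Chaperones called lower numbered 1 with the Y-linked covariate or only libraries with Y-linked reads, and those called higher 0 to 1 with a library left out. S phase genes called higher numbered 0 to 4, and G2 and mitosis genes 0 to 5, with a library left out. Replicate numbers are those of the titles, and the file headers number 4-week replicates 1 and 2 in reverse. Libraries with the same number in the titles did not deviate together (correlations -0.24 to -0.03). This cannot exclude that they were handled together, and the header numbering was not checked in this way. With the replicate block the members called stayed at 0 higher and 1 lower, and calls over all genes fell from 2023 to 1300. Where a library left out leaves 3 against 4, fewer samples were fitted. The 14 members with few reads could not be tested.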
